A study of Microtus ochrogaster with 40 samples.

Results

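Tachykinins are a family of neuropeptides, and the genes described here are 2 that encode their precursors, Tac1 and Tac2, and 2 that encode their receptors, Tacr1 and Tacr3. They were chosen by name, in any letter case, and are 4 of the 19130 genes counted. The nuclei were isolated from the accumbens of the prairie vole (Microtus ochrogaster), a rodent that forms lasting bonds between partners, with 40 animals in all. Animals of both sexes had lived for 16 days with an unfamiliar partner, either an opposite-sex mate or a same-sex peer. There were 11 female mates, 8 female peers, 11 male mates and 10 male peers, or 22 mates and 18 peers, and no group without a partner. Each library held the nuclei of 1 animal, dissected and dissociated on its own. The labels give no age, no colony and no partner, so animals that lived together may have been counted as separate replicates.

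Tac1 encodes the precursor of substance P and neurokinin A, and Tac2 that of neurokinin B, whose human gene is called TAC3. Tacr1 encodes the NK1 receptor, which prefers substance P, and Tacr3 the NK3 receptor, which prefers neurokinin B. Both receptors act through the Gq protein and phospholipase C and generally excite the cells that carry them. In the striatum of other rodents, Tac1 is a standard marker of the direct-pathway projection neurons that express the D1 dopamine receptor, Penk marks those of the D2 receptor, and NK1 receptors are known from cholinergic and somatostatin interneurons.

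The deposited tables held 194518 cell barcodes, from 1825 to 12519 per library, of which 177991 were kept as single nuclei. Kept nuclei carried 2925589 to 13207335 UMIs (unique molecular identifiers, 1 per captured transcript) per library, and the median per nucleus ran from 647 in male mate 2 to 2172. Of 164425 distinct barcodes, 19903 occurred in more than 1 library, with at most 85 shared by any 2 libraries. Classes of nuclei were named from marker genes after a clustering from which Tac1, Tac2, Tacr1 and Tacr3 had been left out. They comprised 33318 D1 medium spiny neuron (MSN)-like nuclei, 31461 D2 MSN-like, 13843 eccentric MSN-like (projection neurons marked by Foxp2 and Otof), 11262 somatostatin interneuron-like and 1000 cholinergic interneuron-like nuclei. A further 32958 nuclei, 18.5% of the total, were glutamate neuron-like. Of the marker genes in the tables, 3 of 6 were highest in their own class for D1, 6 of 7 for D2, 5 of 6 for eccentric, 4 of 5 for somatostatin and 5 of 5 for cholinergic. The somatostatin interneuron-like cluster was also led by Vip and Kit, genes of other interneurons. Levels are given as CPM, the UMIs of a gene per 1000000 UMIs of an animal's nuclei of a class, over animals with at least 20 such nuclei.

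Tac1 (ENSMOCG00000014686; 228110 UMIs in 50683 nuclei) was mainly a transcript of D1 MSN-like and eccentric MSN-like nuclei, which held 60.8% and 22.3% of its UMIs. Its level in eccentric MSN-like nuclei was 2028 ± 669 CPM (SD, n = 40), with a lowest animal of 737, a median of 1932 and a highest of 3537. In D1 MSN-like nuclei it was 1836 ± 408 CPM (SD, n = 40; lowest 1136, median 1804, highest 2751). The 2 classes overlapped widely and could not be put in order, with a mean log2 difference of 0.10 and the eccentric level higher in 26 of 40 animals (sign-flip permutation test over animals, adjusted p = 0.188). At a finer clustering this difference was -0.04.

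D2 MSN-like nuclei followed at 314 ± 130 CPM (SD, n = 40; 115 to 865), below the D1 level in 40 of 40 animals by 2.59 on the log2 scale (same test, adjusted p = 7.20e-05). Immature neuron-like nuclei had 212 ± 177 CPM and somatostatin interneuron-like nuclei 193 ± 75.1 CPM, which did not differ beyond their spread (adjusted p = 0.576). The immature level rested on a median of 12.0 Tac1 UMIs per animal (0 to 48). Astrocyte-, oligodendrocyte-, oligodendrocyte precursor-, microglia- and glutamate neuron-like nuclei lay between 64.5 and 134 CPM, and cholinergic interneuron-like nuclei were lowest at 28.2 CPM. Within the glutamate neuron-like class, a cluster led by Stmn1, Cck and Sncb had 187 ± 132 CPM, against 23.5 and 22.9 CPM in the other 2 clusters of the class. Mitochondrial genes were also among its leading genes.

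The share of nuclei in which Tac1 was found gave the same leading classes. With every nucleus thinned to 1000 UMIs and shallower nuclei left out, 69.1% ± 7.02 of D1 MSN-like and 55.7% ± 7.49 of eccentric MSN-like nuclei held at least 1 Tac1 UMI (SD over 40 and 39 animals; 81.2% and 57.6% without thinning). Oligodendrocyte-like nuclei, which are not expected to make the peptide and have a median of 666 UMIs against 2026 in D1 MSN-like nuclei, gave a background of 6.55% (4.82% without thinning). The shares in glutamate neuron-like (4.43%), astrocyte-like (5.65%) and cholinergic interneuron-like nuclei (2.81%) lay below that background, and Tac1 was not read as expressed there. The background was uneven. At the finer clustering, 4.17% of 1606 thinned nuclei held Tac1 in the largest oligodendrocyte-like cluster, 5.93% of 270 in another and 29.4% of 153 in another. The glutamate and astrocyte shares were not below the first of these. D2 MSN-like nuclei at 14.1% (median 1934 UMIs) and somatostatin interneuron-like nuclei at 12.5% (median 2091 UMIs) lay above the class background of 6.55%. Most D2 MSN-like nuclei lay near it. In the largest D2 cluster of the finer clustering, 5.60% of 21844 thinned nuclei held a Tac1 UMI. Oligodendrocyte-like nuclei pooled in the same way gave 6.11%, and their largest cluster 4.17%. The immature neuron-like cluster gave 7.51% of 453, near the pooled value, and Tac1 was not read as expressed there. In the D2 cluster led by Cpne7 the share was 56.5%.

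**Figure D1:**
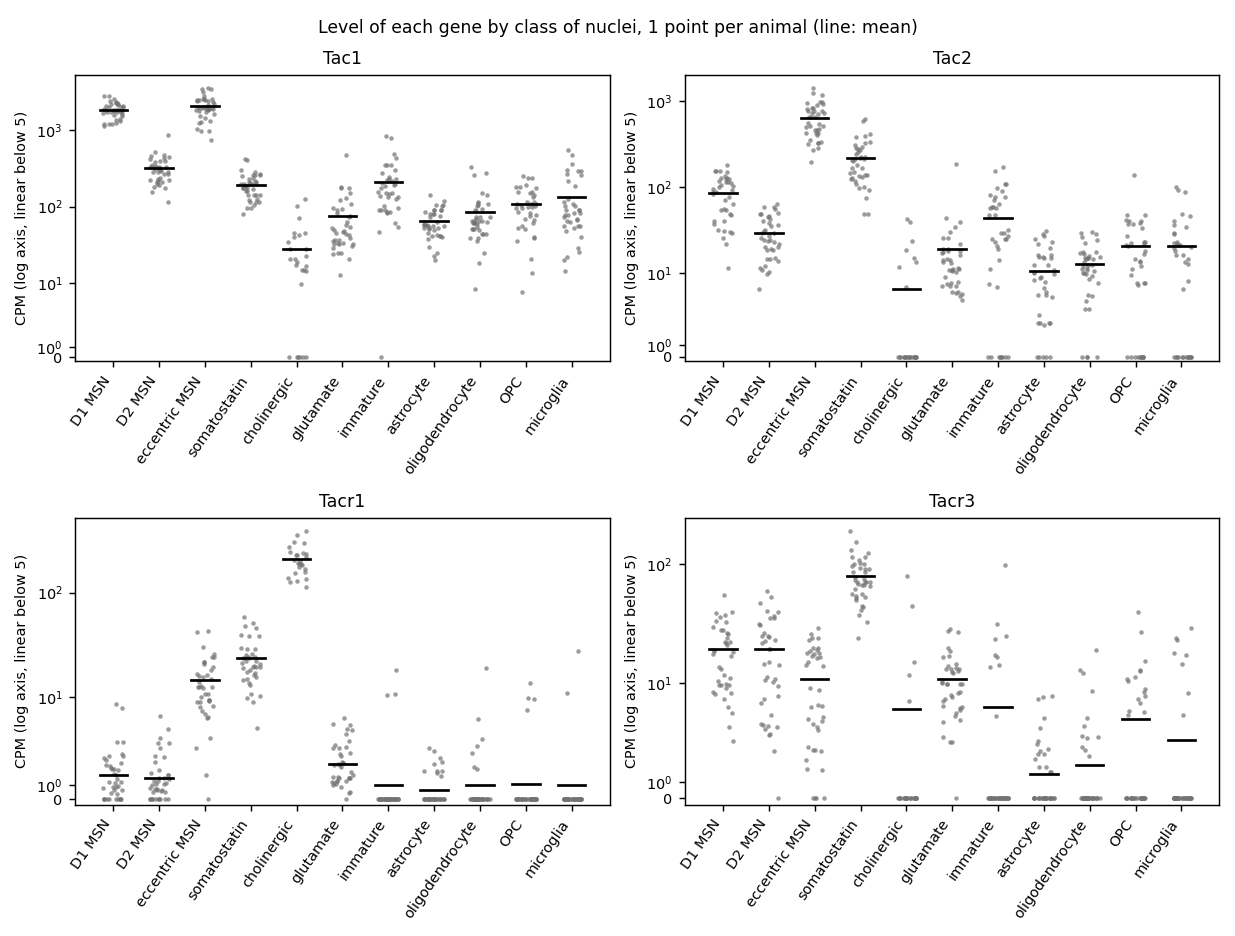
Level of Tac1, Tac2, Tacr1 and Tacr3 by class of nuclei, as CPM on an axis that is logarithmic above 5 and linear below, with 1 point per animal and a line at the mean. Tac1 was high in D1 and eccentric MSN-like nuclei, Tac2 in eccentric MSN-like nuclei, Tacr1 in cholinergic interneuron-like nuclei and Tacr3 in somatostatin interneuron-like nuclei.

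Tac1 in the D2 MSN-like class was high in 1 of its 2 clusters. The cluster led by Cpne7 and Gpr6 (4729 nuclei) had 1347 ± 477 CPM of Tac1, and the larger cluster led by Adora2a and Penk (26732 nuclei) had 110 ± 47.8 CPM in the same 39 animals, lower in each of them. Penk, the precursor of enkephalin, had the opposite pattern, with 204 CPM in the first and 6891 CPM in the second. Drd2, the D2 dopamine receptor, was at 371 and 341 CPM, and Drd1 at 86.5 and 43.6 CPM. These clusters were picked after their levels had been seen, so the values are descriptions with no test.

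In single nuclei of the D2 MSN-like class, Penk was found in 43.5% of nuclei with a Tac1 UMI and in 90.5% of those without, an odds ratio of 0.0760 that lay below 1 in all 39 animals (sign-flip permutation test on the log2 odds ratio over animals, adjusted p = 2.46e-05). Drd1 was found in 12.2% of Tac1 nuclei and 2.06% of the others (odds ratio 6.71, above 1 in 39 of 39 animals, adjusted p = 2.46e-05). Its share in the whole class was 3.36%, against 2.76% in oligodendrocyte-like nuclei. Genes of other neurons were likewise found with Tac1 more often. They were Pdyn, the dynorphin precursor of direct-pathway neurons (odds ratio 3.20), and the interneuron genes Sst (7.13% against 2.45%, odds ratio 2.86), Nos1 (1.98) and Npy (1.64), with adjusted p from 2.46e-05 to 4.40e-04. Pdyn was found in 1.47% of the class and in 1.55% of oligodendrocyte-like nuclei, and its level was higher in the Cpne7 cluster in 22 of 39 animals.

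Such excesses also occurred in classes read as background for Tac1, though the glutamate class holds the cluster led by Stmn1, Cck and Sncb, where Tac1 was higher. In glutamate neuron-like nuclei the odds ratio with Tac1 was 3.31 for Drd1, 5.73 for Pdyn and 3.91 for Penk (sign-flip permutation test, adjusted p = 2.46e-05 for each). At the finer clustering it was 1.42 for Drd1 and 1.44 for Penk, and Pdyn had too few nuclei to be tested. Both passed by the log2 odds ratio (same test, adjusted p = 8.20e-05 and 1.45e-04). Neither passed by the shared nuclei observed minus expected (adjusted p = 0.145 and 0.0811). In the oligodendrocyte-like nuclei of the finer clustering the odds ratio with Tac1 was 9.45 for Drd1 (17.4% against 1.64%, same test, adjusted p = 3.24e-05). There 21 nuclei held both against 5.86 expected, with more than expected in 11 of 34 animals (adjusted p = 0.00443 by observed minus expected nuclei). Because 0.5 was added to each cell, an animal without a shared nucleus can still have a positive log2 odds ratio. In the D2 MSN-like nuclei of that clustering the odds ratio with Tac1 was 6.64 for Drd1, above 1 in 39 of 39 animals. The excesses in the D2 MSN-like class are given as values, and no kind of nucleus is read from them.

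Among D1-type nuclei, the finer clustering set apart 2275 nuclei led by the activity-dependent genes Npas4, Fosb, Arc and Fos, which fell short of the markers needed for a class name. Tac1 there was 3726 ± 778 CPM, against 1846 ± 375 CPM in the largest D1 MSN-like cluster, and was higher in 36 of 36 animals. Pdyn was likewise higher in all 36 animals, at 1357 against 634 CPM, and Drd1 was at 962 CPM in both. Tac2 (61.4 and 83.8 CPM) and Tacr3 (26.2 and 19.5 CPM) did not share the pattern, with Tac2 higher in 10 and Tacr3 in 20 of the 36. This cluster too was chosen after its values were seen and carries no test.

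In D1 MSN-like nuclei, those with a Tac1 UMI more often held Pdyn (42.7% against 31.0%, odds ratio 1.58, above 1 in 39 of 40 animals) and Drd1 (60.8% against 53.0%, odds ratio 1.35, 37 of 40). They less often held Drd2 (0.898% against 2.52%, odds ratio 0.362). The adjusted p was 2.46e-05 for each of these pairs in the sign-flip permutation test, the smallest that the resamples allow after adjustment over the 138 pairs tested. In the eccentric MSN-like class Tac1 also went with Drd1, found in 59.3% of Tac1 nuclei and 41.1% of the others (odds ratio 2.09, 39 of 39 animals, adjusted p = 2.46e-05).

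Tac2 (ENSMOCG00000000889; 33342 UMIs in 13307 nuclei), by its symbol the neurokinin B precursor, was concentrated in eccentric MSN-like nuclei, which were 7.78% of all nuclei and held 48.8% of its UMIs. RefSeq's annotation of this species (MicOch1.0) lists a Tac3 and no Tac2, so this identity rests on the symbol in the deposited tables alone. The level there was 636 ± 286 CPM (SD, n = 40), from 194 in the lowest animal through a median of 597 to 1415 in the highest. Somatostatin interneuron-like nuclei had 219 ± 128 CPM (48.7 to 613) and D1 MSN-like nuclei 85.6 ± 45.0 CPM (11.5 to 182). Both steps exceeded the spread between animals. The eccentric level was above the somatostatin level in 40 of 40 animals, by 1.59 on the log2 scale, and the somatostatin level above the D1 level in 36 of 40, by 1.30 (sign-flip permutation test, adjusted p = 7.20e-05 for each). Immature neuron-like (44.2 CPM) and D2 MSN-like nuclei (29.4 CPM) could not be put in order, and glutamate neuron-like nuclei (19.1 CPM) did not differ from oligodendrocyte-like nuclei (12.8 CPM) beyond the spread. The immature level rested on a median of 1.00 Tac2 UMI per animal. At the finer clustering 1.77% of 453 thinned immature neuron-like nuclei held Tac2, against 1.06%, 1.48% and 3.27% in the oligodendrocyte-like clusters.

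At 1000 UMIs per nucleus, Tac2 was found in 35.7% ± 11.1 of eccentric MSN-like nuclei (39 animals; 44.3% without thinning), with animals ranging from 17.1% to 58.5%. The shares were 8.54% in somatostatin interneuron-like, 6.21% in D1 MSN-like and 2.44% in D2 MSN-like nuclei, over a background of 1.27% in oligodendrocyte-like nuclei. Cholinergic interneuron-like nuclei were at 6.62 CPM, with a Tac2 UMI in 0 of 705 nuclei at 1000 UMIs, below that background. Without thinning 10 of 1000 nuclei held one (1.36% as the mean over 26 animals, against 0.887% in oligodendrocyte-like nuclei, at median depths of 2395 and 666 UMIs). The eccentric MSN-like class was not uniform. At the finer clustering, its second cluster (1248 nuclei, led by genes that include Gpr101, in 20 animals) had 26.4 CPM of Tac2 and 69.3 ± 51.0 CPM of Tac1, against 643 ± 289 CPM of Tac2 and 2054 ± 670 CPM of Tac1 in the first.

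The 2 precursors were found together less often than expected in D1 MSN-like and somatostatin interneuron-like nuclei, and more often in eccentric MSN-like, D2 MSN-like and glutamate neuron-like nuclei. In D1 MSN-like nuclei, Tac2 was found in 4.91% of those with Tac1 and 9.87% of those without, 1045 nuclei with both against 1367 expected if the genes were independent within each animal. The odds ratio was 0.449, above 1 in 1 of 40 animals (sign-flip permutation test, adjusted p = 2.46e-05). In eccentric MSN-like nuclei 2482 held both against 2368 expected, an odds ratio of 1.20 (adjusted p = 0.00105), which no longer passed the threshold at 500 or 2000 UMIs per nucleus or with likely doublets kept. At the finer clustering it was 1.53 and passed (2437 nuclei against 2159 expected, same test, adjusted p = 3.24e-05). In D2 MSN-like nuclei the odds ratio was 1.72 (162 nuclei against 106 expected, adjusted p = 2.46e-05). At 2000 UMIs per nucleus it was 1.33 and did not pass by observed minus expected nuclei (adjusted p = 0.0608). In somatostatin interneuron-like nuclei it was 0.433 (51 against 103, adjusted p = 2.46e-05). In glutamate neuron-like nuclei, where Tac1 was at background, 30 nuclei held both against 11.0 expected (odds ratio 3.18, adjusted p = 2.46e-05). By observed minus expected nuclei the adjusted p was 0.00470, with more than expected in 17 of 40 animals. The odds ratio of 3.18 was above those in eccentric and D2 MSN-like nuclei, though the difference was not tested. At the finer clustering the glutamate pair had too few nuclei to be tested, and the D2 odds ratio was 1.88.

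The nuclei with Tac2 differed from other nuclei of their class in further genes. Within D1 MSN-like nuclei, Tac2 was found less often with Oprk1, the kappa opioid receptor (14.3% against 20.3%, odds ratio 0.643), and within eccentric MSN-like nuclei less often with Penk (63.9% against 73.7%, odds ratio 0.649) and more often with Drd1 (57.1% against 47.8%, odds ratio 1.43). Each of these passed the threshold (sign-flip permutation test, adjusted p of 1.13e-04, 2.46e-05 and 2.46e-05). In somatostatin interneuron-like nuclei, Tac2 went with Vip, the gene of vasoactive intestinal peptide, which was found in 35.4% of Tac2 nuclei and 3.57% of the others (odds ratio 14.8, above 1 in 39 of 40 animals, adjusted p = 2.46e-05). Penk was also more frequent there (22.5% against 9.02%, odds ratio 2.94), and Nos1 (odds ratio 0.381) and Pvalb (odds ratio 0.125, above 1 in 0 of 40 animals), the genes of nitric oxide synthase and parvalbumin, were less frequent, each with adjusted p = 2.46e-05. Both relations with Penk depended on how the nuclei were divided. At the finer clustering, the odds ratio of Tac2 and Penk was 0.924 in eccentric MSN-like nuclei and did not pass (adjusted p = 0.429). It was 4.00 in a Vip-led class (adjusted p = 3.24e-05) and 0.847 in the remaining somatostatin interneuron-like nuclei. In the latter the observed minus the expected nuclei did not pass (adjusted p = 0.568), while the mean log2 odds ratio passed on the other side of independence (0.67, adjusted p = 0.0137), so no direction is read there. There the relation of Tac2 and Pvalb (odds ratio 0.145) passed by observed minus expected nuclei (adjusted p = 4.73e-05) and not by the log2 odds ratio (adjusted p = 0.249).

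Tacr1 (ENSMOCG00000006018), the substance P receptor, was a sparse transcript with 1995 UMIs in 1653 nuclei. It was highest in cholinergic interneuron-like nuclei, which make up 0.562% of all nuclei and held 26.6% of its UMIs. The level was 209 ± 69.2 CPM there (SD, n = 26 animals with enough nuclei; lowest 113, median 195, highest 384), from a median of 15.5 UMIs per animal. Somatostatin interneuron-like nuclei had 23.7 ± 12.0 CPM (5.14 to 58.4), eccentric MSN-like nuclei 14.5 ± 9.43 CPM (0 to 42.8), and glutamate neuron-like nuclei 2.53 CPM.

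Each of these steps passed the sign-flip permutation test. Cholinergic levels were above somatostatin levels in 26 of 26 animals, by 2.81 on the log2 scale (adjusted p = 5.71e-05, in a comparison extended, after the data were seen, to classes with at least 20 animals). Somatostatin levels were above eccentric levels in 27 of 40 animals, by 0.60 (adjusted p = 3.60e-04), and eccentric levels above glutamate levels in 38 of 40, by 1.25 (adjusted p = 7.20e-05). D1 and D2 MSN-like nuclei, at 1.75 and 1.51 CPM, did not differ beyond their spread (adjusted p = 0.645). At 1000 UMIs per nucleus, a Tacr1 UMI was found in 20.0% of cholinergic interneuron-like nuclei (141 of 705), 2.71% of somatostatin interneuron-like and 1.24% of eccentric MSN-like nuclei, against 0.0213% of oligodendrocyte-like nuclei. Without thinning the 4 shares were 36.4%, 4.54%, 2.64% and 0.0788%, at median depths of 2395, 2091, 1655 and 666 UMIs. At this depth, most cholinergic interneuron-like nuclei held no Tacr1 UMI, which does not show that they lack the transcript.

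Within the somatostatin interneuron-like class, Tacr1 was found mostly in nuclei with the genes of the somatostatin, neuropeptide Y and nitric oxide synthase interneuron. Of 241 thinned nuclei with a Tacr1 UMI, 86.3% held Sst, 85.5% Npy and 80.9% Nos1, against 31.7%, 23.6% and 12.3% of the nuclei without one. The odds ratios were 15.7, 20.8 and 30.6, each above 1 in 40 of 40 animals (sign-flip permutation test, adjusted p = 2.46e-05). In the eccentric MSN-like class, nuclei with Tacr1 less often held Penk (48.9% against 70.5%, odds ratio 0.416, adjusted p = 2.46e-05). At 500 UMIs per nucleus that odds ratio was 0.707 and did not pass by observed minus expected nuclei (adjusted p = 0.289).

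Tacr3 (ENSMOCG00000010143; 6497 UMIs in 5257 nuclei), the neurokinin B receptor, was highest in somatostatin interneuron-like nuclei at 79.2 ± 33.7 CPM (SD, n = 40; lowest 23.8, median 70.9, highest 189). D2 MSN-like nuclei had 19.3 ± 15.2 CPM (0 to 59.7) and D1 MSN-like nuclei 19.3 ± 11.9 CPM (3.58 to 54.8), which did not differ beyond their spread (sign-flip permutation test, adjusted p = 0.335). The somatostatin level was above the D2 level in 40 of 40 animals, by 1.96 on the log2 scale (adjusted p = 7.20e-05). Glutamate neuron-like (10.9 CPM) and eccentric MSN-like nuclei (10.8 CPM) came next and could not be put in order, and cholinergic interneuron-like nuclei had 6.03 CPM. At 1000 UMIs per nucleus the shares were 7.33% in somatostatin interneuron-like, 1.96% in D2 MSN-like and 1.88% in D1 MSN-like nuclei (12.8%, 3.89% and 4.07% without thinning), against 0.159% in oligodendrocyte-like nuclei (0.164% without).

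The level in the somatostatin interneuron-like class came from nuclei without Sst. At the finer clustering, 3415 nuclei led by Vip, Crabp1, Trh, Kit and Htr3a formed a class of their own, and Tacr3 was 221 ± 76.8 CPM in them and 17.9 ± 12.3 CPM in the 6448 nuclei of the cluster led by Sst, higher in the first in 39 of 39 animals. With that split, the somatostatin class no longer exceeded the D2 class (log2 difference -0.05). Tac2 followed Tacr3 into the Vip-led cluster, at 512 ± 480 against 136 ± 76.4 CPM (higher in 35 of 39 animals). Tacr1 and Tac1 went with Sst, at 3.96 against 38.7 CPM for Tacr1 and 44.2 against 291 CPM for Tac1, both lower in the Vip-led cluster in each of the 39 animals. The clusters were compared after their values had been seen, and no test is given.

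Co-detection within the undivided class gave the same separation between the 2 receptors. Nuclei with Tacr3 rarely held Sst (5.53% against 35.3% of those without Tacr3, odds ratio 0.108), Npy (5.82% against 26.8%, 0.163) or Nos1 (2.41% against 15.0%, 0.132), and more often held Htr3a, a serotonin receptor gene of another interneuron family (11.8% against 3.46%, 3.40). All 4 had adjusted p = 2.46e-05 in the sign-flip permutation test. Inside the Vip-led class the Htr3a difference was not seen, with 13.7% against 11.8% (odds ratio 1.15, adjusted p = 0.138). In the Sst-led nuclei the Npy odds ratio was 0.409, with adjusted p = 0.0695 by the log2 odds ratio and 0.00324 by observed minus expected nuclei. Tacr1 and Tacr3 were found together in 5 nuclei of the undivided class against 20.1 expected, an odds ratio over all animals of 0.223 (adjusted p = 3.73e-05 for observed minus expected nuclei). The mean log2 odds ratio over animals lay on the other side, at 0.47 (adjusted p = 0.0489), so the 2 measures gave opposite directions and none is read for this pair.

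Tac2 and its receptor gene Tacr3 were both high in the Vip-led nuclei but were seldom found in the same ones. In the somatostatin interneuron-like class 7 nuclei held both against 55.1 expected, an odds ratio of 0.107 that was above 1 in 0 of 40 animals (sign-flip permutation test, adjusted p = 2.46e-05). Inside the Vip-led class of the finer clustering, where each gene was more frequent, 5 nuclei held both against 66.9 expected (odds ratio 0.0509, above 1 in 0 of 38 animals, adjusted p = 3.24e-05). There Vip was found in 68.5% of Tac2 nuclei and 10.6% of the others (odds ratio 16.4), and in 6.75% of Tacr3 nuclei and 20.9% of the others (odds ratio 0.286), each with adjusted p = 3.24e-05. The Tacr3 and Vip relation was not visible in the undivided class (odds ratio 1.01), where its direction changed with the depth of thinning. In D2 MSN-like nuclei Tacr3 went with Penk (93.7% against 83.5%, odds ratio 3.08, adjusted p = 3.86e-04). The 2 D2 clusters differed in both genes. The Cpne7 cluster had 4.72 ± 6.42 CPM of Tacr3 and the Penk-rich cluster 22.5 ± 17.1, with the first higher in 1 of 39 animals. Penk was 204 against 6891 CPM, and the relation was not tested within each cluster.

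**Figure D2:**
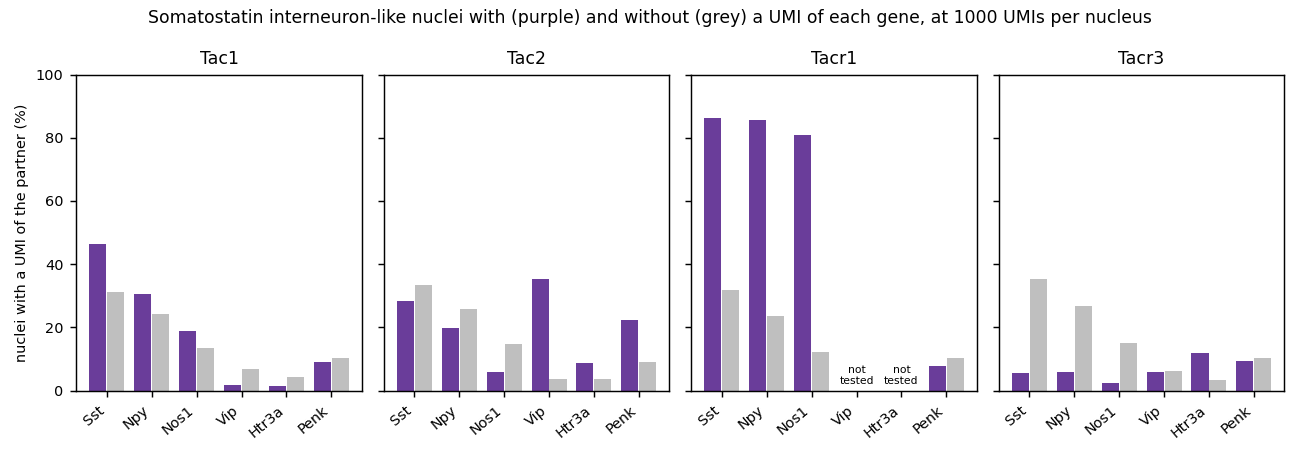
Share of thinned somatostatin interneuron-like nuclei that held a UMI of each partner gene, among nuclei with (purple) and without (grey) a UMI of Tac1, Tac2, Tacr1 or Tacr3, pooled over 40 animals. Sst, Npy and Nos1 were found in 80.9% to 86.3% of Tacr1 nuclei and in 2.41% to 5.82% of Tacr3 nuclei, and Vip in 35.4% of Tac2 nuclei.

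Over all 138 pairs tested, 98 passed the threshold by the log2 odds ratio and 76 by the number of nuclei observed minus expected, a measure added after the data were seen. For rare pairs the 2 measures can differ in direction either way. Of the 138 pairs, 67 passed both in the same direction, 41 with more shared nuclei than expected and 26 with fewer, and 3 passed in opposite directions (Tacr1 with Tacr3 in the somatostatin class, Tac2 with Nos1 in D1 MSN-like and Tac1 with Crhr1 in glutamate neuron-like nuclei). Nuclei of 1 animal share their library, and a class can hold several kinds of nuclei, so a ratio away from 1 does not tell kinds of nuclei from states within a kind.

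Across the 21 clusters with at least 200 nuclei, Tac1 and Tac2 had a Pearson r of 0.77 on the log2(CPM + 5) scale, Tac2 and Tacr3 of 0.59, and Tac1 and Tacr1 of 0.05. Among 13263 genes, the patterns closest to Tac1 were those of Slc35d3 (r = 0.98), Il20ra (0.93) and Rarb (0.88). Shisa8 (0.89), Spint1 (0.87) and Sytl5 (0.87) were closest to Tac2. For Tacr1 they were Lhx8 (0.93), a transcription factor gene of cholinergic neurons, Ecel1 (0.92) and Zar1 (0.92), and for Tacr3 Fgf9 (0.90), Tmem215 (0.87) and Cdh7 (0.87). Clusters share libraries and differ in depth, so these values describe likeness only.

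Mates and peers did not differ detectably in any of the 4 genes. Summed over all nuclei, where fewer nuclei of a type and less RNA per nucleus cannot be told apart, Tac1 was 699 ± 210 CPM in mates (n = 22; 353 to 1287) and 667 ± 158 in peers (n = 18; 432 to 958). Tac2 was 90.9 ± 33.9 against 108 ± 35.5 CPM, Tacr1 5.98 ± 1.86 against 6.14 ± 2.43, and Tacr3 19.5 ± 6.50 against 19.9 ± 9.69. The ranges overlapped throughout. In edgeR's quasi-likelihood test the log2 fold changes of mates over peers were 0.08 (95% interval -0.19 to 0.34) for Tac1, -0.24 (-0.59 to 0.11) for Tac2, 0.00 (-0.33 to 0.34) for Tacr1 and -0.03 (-0.39 to 0.33) for Tacr3. The adjusted p values over all genes were 0.895, 0.758, 0.998 and 0.975. With a term for sets of 10 label numbers, described further on, the log2 fold changes were 0.21, -0.04, 0.13 and 0.08, with none called. Without male mate 2, the shallowest library, the fold changes were 0.11, -0.22, -0.01 and -0.03, again with no gene called. Of 13710 genes tested, 0 (0%) passed the adjusted threshold of 0.05 in edgeR and 0 in DESeq2, while 924 (6.74%) and 975 (7.11%) had an unadjusted p under it.

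Within classes, 23 pairs of one of the 4 genes and a class held enough UMIs for the test. In edgeR 0 of the 23 passed the adjusted threshold and 0 had an unadjusted p under 0.05, beside 0 calls (0%) and 3849 unadjusted (4.97%) over all 77417 pairs of a gene and a class. DESeq2 called 0 of all pairs, with 3596 (4.64%) unadjusted. In D1 MSN-like nuclei, Tac1 had a median of 1800 CPM in female mates (1207 to 2751), 1862 in female peers (1413 to 2325), 1827 in male mates (1136 to 2375) and 1787 in male peers (1313 to 2747). The groups lay on top of each other, with a log2 fold change of -0.08 (95% interval -0.29 to 0.13, adjusted p = 0.971). With the term for sets of 10 label numbers the fold change was 0.06, of the opposite sign. The interval for Tac1 in this class covers a fold from 0.815 to 1.09.

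In eccentric MSN-like nuclei, the median of Tac2 was 731 CPM in female mates (267 to 826), 714 in female peers (323 to 1186), 424 in male mates (194 to 1247) and 579 in male peers (428 to 1415). Mates averaged 574 ± 268 and peers 712 ± 296 CPM, a log2 fold change of -0.31 (95% interval -0.69 to 0.06; unadjusted p = 0.0932, adjusted p = 0.949, edgeR). The share of these nuclei with a Tac2 UMI was 33.0% ± 11.4 in 21 mates and 38.9% ± 10.1 in 18 peers, a difference of -6.22 percentage points as the mean of the differences within each sex (permutation test within sex, p = 0.0806, adjusted p = 0.684 over 12 share tests, none of which passed). With the term for sets of 10 label numbers the fold change was -0.07.

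Tacr1 in cholinergic interneuron-like nuclei was 200 ± 72.5 CPM in 14 mates (113 to 353) and 221 ± 66.4 in 12 peers (126 to 384), a log2 fold change of -0.15 (95% interval -0.51 to 0.21, adjusted p = 0.969, edgeR). Tacr3 in somatostatin interneuron-like nuclei had medians of 99.7 CPM in female mates (32.5 to 189), 59.9 in female peers (23.8 to 132), 70.3 in male mates (44.4 to 101) and 68.8 in male peers (37.4 to 154). Female mates were the highest group, with ranges that overlapped all the others. This class includes Vip-led and Sst-led nuclei, which had 221 and 17.9 CPM of Tacr3 at the finer clustering. The part of their mix in an animal's level was not tested. The log2 fold change of mates over peers in the whole class was 0.21 (-0.12 to 0.54, adjusted p = 0.949, edgeR). It was 0.52 in females (95% interval 0.04 to 0.99, unadjusted p = 0.0330, adjusted p = 0.984; unadjusted p = 0.0278 in DESeq2) and -0.09 in males, and the test of the difference between the sexes did not pass (0.60, adjusted p = 1.00). With the term for sets of 10 label numbers the fold change over both sexes was 0.39 (unadjusted p = 0.0162, adjusted p = 1.00).

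**Figure D3:**
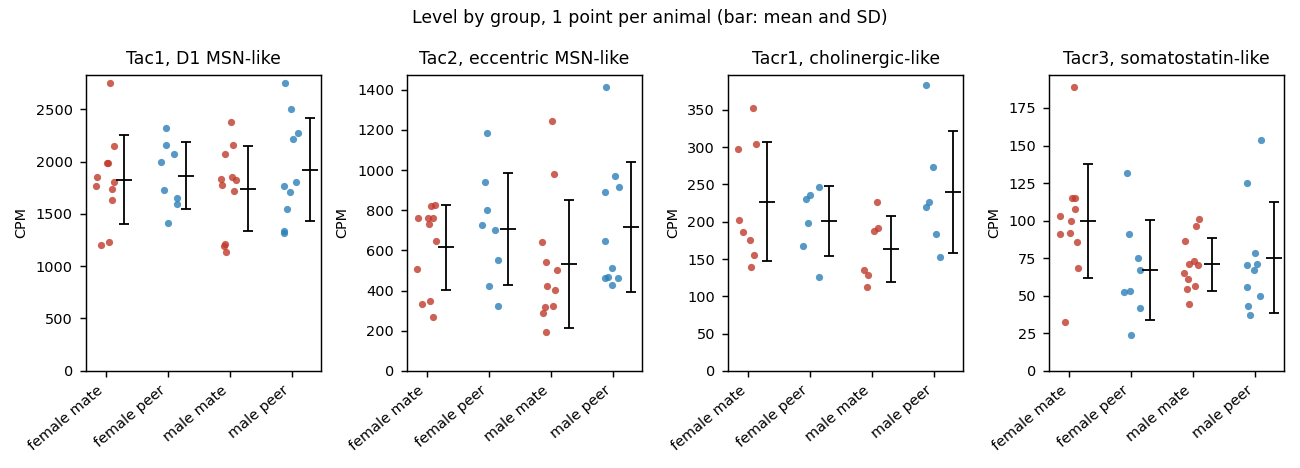
Level of each gene in the class shown above its panel, as CPM, by group, with 1 point per animal (red for mates, blue for peers) and the mean with SD at the right. The groups overlap in each panel, and Tacr1 is shown for the 26 animals with at least 20 cholinergic interneuron-like nuclei.

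The sexes did not differ detectably in these genes either. Over all nuclei the log2 fold changes of females over males were 0.05 for Tac1, 0.05 for Tac2, -0.11 for Tacr1 and -0.01 for Tacr3, with adjusted p from 0.865 to 0.991 in edgeR. Across all 13710 genes edgeR called 3 (0.0219%; 8.24% unadjusted) and DESeq2 5 (0.0365%; 8.25% unadjusted). Within classes 0 of 23 pairs were called, beside 15 of 77417 by edgeR (0.0194%; 5.47% unadjusted) and 17 by DESeq2 (0.0220%; 5.18% unadjusted). In edgeR the lowest unadjusted p of the 23 was that of Tacr3 in glutamate neuron-like nuclei (log2 fold change -0.45, p = 0.0486, adjusted p = 0.909; p = 0.0669 in DESeq2). In DESeq2 it was that of Tac1 in oligodendrocyte-like nuclei (p = 0.0361; 0.0576 in edgeR), where Tac1 was at background. The test of a difference in the effect of pairing between the sexes called none of the 4 genes over all nuclei or within classes, and no other gene (0 calls, 0%, by edgeR and 0 by DESeq2 in both). Unadjusted p under 0.05 was reached by 277 of 13710 genes in edgeR (2.02%; 2.09% in DESeq2), none of them one of the 4, and by 2097 of 77417 pairs (2.71%; 2.48% in DESeq2), among them Tac1 in astrocyte-like nuclei (p = 0.0397), where Tac1 was at background.

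The peptide and receptor genes varied between animals more than most genes in the same nuclei. The biological coefficient of variation in edgeR was 0.397 for Tac2 in eccentric MSN-like nuclei, at the 98.6th percentile of 9155 genes with a median of 0.152, and 0.318 for Tac1 there, at the 96.6th percentile. In D1 MSN-like nuclei Tac1 was at 0.228 (80.6th percentile) and Tac2 at 0.539 (98.6th). Tac1 also ranked high where it was at background, at percentiles 99.1 in glutamate neuron-like, 97.2 in oligodendrocyte-like and 93.2 in astrocyte-like nuclei. A high rank was therefore not particular to the classes with most of its UMIs. Tacr3 reached 0.705 in D2 MSN-like nuclei, at the 99.5th percentile. Its lowest rank within a class was percentile 95.3, in glutamate neuron-like nuclei. Tacr1 was at percentile 98.3 in eccentric MSN-like and 97.8 in somatostatin interneuron-like nuclei. In cholinergic interneuron-like nuclei Tacr1 was at 0.192 (58.6th percentile of 3039 genes).

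Part of this spread was shared between classes of the same animal. Across the 40 animals, the Tac1 level on the log2(CPM + 5) scale in eccentric MSN-like nuclei correlated with that in D1 MSN-like nuclei (Pearson r = 0.75, Spearman rho = 0.68, permutation test, adjusted p = 5.50e-05 and 7.33e-05 over 22 relations). Tac2 correlated between the same 2 classes (r = 0.68, rho = 0.68, same adjusted p), and Tacr3 between D1 and D2 MSN-like nuclei (r = 0.84, rho = 0.84, same adjusted p). Without the 2 animals farthest from the median the 3 values of r were 0.71, 0.67 and 0.87, as deviations from group means 0.76, 0.68 and 0.86.

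The shared spread was not detected between all classes. Tacr3 in somatostatin interneuron-like nuclei was not detectably related to its level in D1 (r = 0.25, rho = 0.20, adjusted p = 0.205) or D2 MSN-like nuclei (r = 0.30, rho = 0.27, adjusted p = 0.137), and Tac2 in somatostatin interneuron-like nuclei not to that in D1 MSN-like nuclei (r = 0.12, rho = 0.09, adjusted p = 0.577). Against oligodendrocyte-like nuclei, where UMIs of these genes were at background, r was 0.06 for Tac1 in eccentric MSN-like nuclei and 0.17 for Tac2, and neither passed the permutation test. Oligodendrocyte-like nuclei gave a median of 14.5 Tac1 and 3.00 Tac2 UMIs per animal. With so few UMIs, a low r could not show that the spread was not shared. These relations were chosen after the levels of the animals had been seen. Classes of 1 animal come from 1 library, and the part of library preparation in them was not tested.

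**Figure D4:**
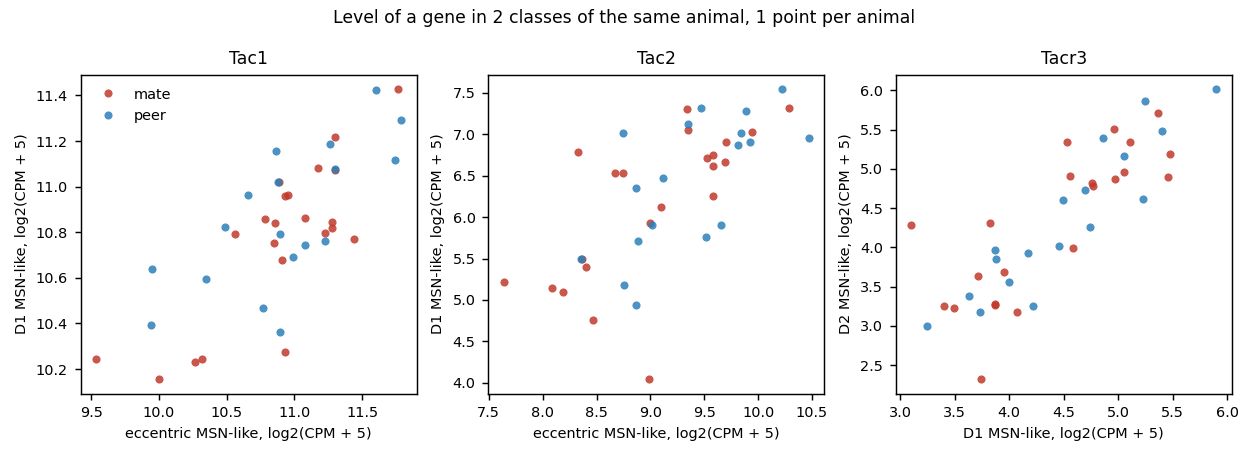
Level of Tac1, Tac2 and Tacr3 in 2 classes of the same animal, both axes as log2(CPM + 5), with 1 point per animal (red for mates, blue for peers). Points rise together in each panel, with Pearson r of 0.75, 0.68 and 0.84.

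The labels number the animals from 1 to 40, and both peptide genes rose with that number. In eccentric MSN-like nuclei, Tac2 averaged 429 ± 155 CPM in animals 1 to 10, 489 ± 205 in 11 to 20, 755 ± 163 in 21 to 30 and 872 ± 334 in 31 to 40 (r = 0.65, rho = 0.62, permutation test, adjusted p = 5.50e-05 and 2.20e-04). Tac1 averaged 1566, 1882, 2307 and 2357 CPM in the same 4 sets (r = 0.43, rho = 0.44, adjusted p = 0.0133 and 0.0144). Tacr1 and Tacr3 in somatostatin interneuron-like nuclei were not detectably related to the number (r = 0.09 and 0.20, adjusted p = 0.673 and 0.337). The labels do not say what the number stands for. The 4 sets held 8, 6, 4 and 4 mates of 10, so pairing and number are partly mixed. Library size was partly mixed with the number too. The smallest library held 2925589 kept UMIs in animals 1 to 10, 3725940 in 11 to 20, 7427545 in 21 to 30 and 6563136 in 31 to 40. The largest of all, with 13207335, was in animals 1 to 10. The part of library size in the rise was not tested.

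With the sets of 10 as a term in edgeR, as given above, none of the 4 genes was called for pairing. As deviations from the means of these sets, the relations between classes were r = 0.66 for Tac1, 0.55 for Tac2 and 0.85 for Tacr3. The relation between Tac1 and Tac2 within eccentric MSN-like nuclei fell from r = 0.46 (rho = 0.47, adjusted p = 0.00801) to 0.24 (permutation p = 0.140).

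Over all nuclei, Tacr1 was higher in animals with a larger share of cholinergic interneuron-like nuclei. Its level correlated with their share (r = 0.54, rho = 0.61, permutation test, adjusted p = 0.00192 over 4 relations), also without the 2 animals farthest from the median share (r = 0.68) and within the sets of 10 (r = 0.45). Tac1 and Tac2 were not detectably related to the share of eccentric MSN-like nuclei, nor Tacr3 to that of somatostatin interneuron-like nuclei (adjusted p from 0.220 to 0.417). Tac1 was related to the share of D1 MSN-like nuclei, the class with most of its UMIs, in a relation added after the data were seen (r = 0.63, rho = 0.67, permutation test, adjusted p = 2.50e-04 over 5 relations; r = 0.67 without the 2 farthest animals and 0.61 within the sets of 10). In both relations the class itself supplied part of the level, 60.8% of the Tac1 UMIs and 26.6% of the Tacr1 UMIs. A rise of the level with the share is thus partly built in.

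**Figure D5:**
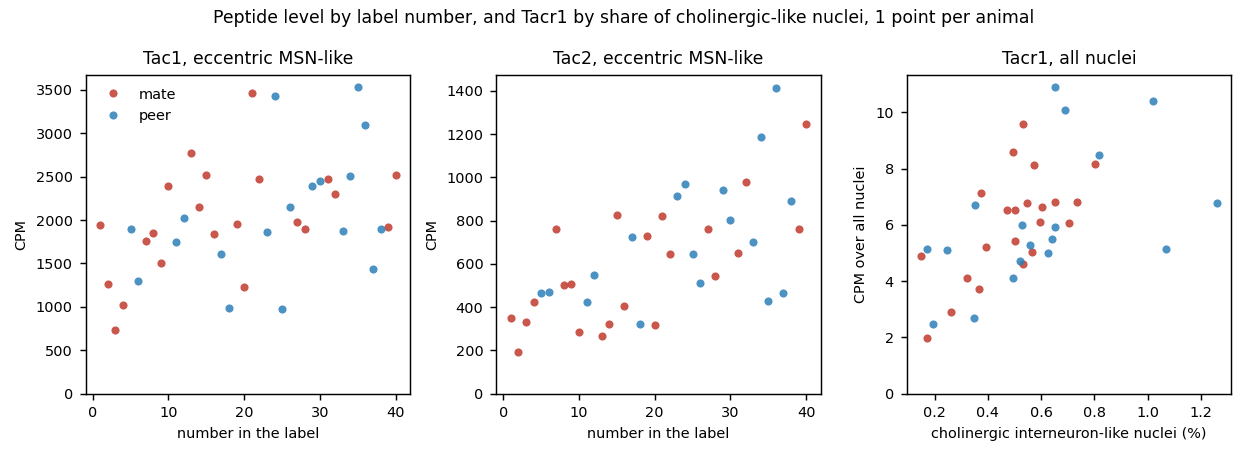
Tac1 and Tac2 in eccentric MSN-like nuclei (CPM) by the number in the animal's label, and Tacr1 over all nuclei (CPM) by the share of cholinergic interneuron-like nuclei (percent), with 1 point per animal (red for mates, blue for peers). Tac2 averaged 429 CPM in animals 1 to 10 and 872 CPM in animals 31 to 40.

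The genes around the peptides and their receptors were read from a list of 41, of which 38 were in the tables and 35 passed the filter on low counts. It held enzymes and secretory proteins that process and release neuropeptides, peptidases that degrade them, Tac4 and Tacr2, and the Gq cascade. In all nuclei, 0 of 35 were called higher and 0 lower in mates by edgeR, with a median log2 fold change of 0.00 beside -0.01 over all genes. The lowest p was that of Unc79 (log2 fold change 0.17, SE 0.08, p = 0.0324, adjusted p = 0.730), followed by Prkcb (0.16, adjusted p = 0.730) and Unc80 (0.13, adjusted p = 0.730). Unc79 and Unc80 encode subunits of the NALCN sodium leak channel, which tachykinin receptors can open, and Prkcb a protein kinase C.

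Within classes, 0 of 244 pairs of a listed gene and a class were called in either direction, and 12 had an unadjusted p under 0.05, beside the 4.97% of all pairs given above. The lowest were those of Unc79 in eccentric MSN-like (log2 fold change 0.22, p = 0.00583) and immature neuron-like nuclei (0.47, p = 0.00958) and Prkcb in D1 MSN-like nuclei (0.24, p = 0.0139), each with adjusted p = 0.949. No listed gene was called for sex or for the interaction. Tac4, the gene of hemokinin, was counted with 1 UMI in all libraries and Tacr2, the NK2 receptor, with 16, both too few to test.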

How the data were processed

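The authors deposited, per the file headers, matrices of whole-number UMI counts per gene and barcode, 1 per animal, made with Cell Ranger 3.1.0 per the submitters' processing notes; the genome build and annotation are not given in the sources used here. Barcodes with under 500 UMIs (6375) or over 5% mitochondrial UMIs (2148) were left out. The barcodes most like simulated pairs of nuclei, 0.8% per 1000 barcodes of a library and 8004 in all, were left out as likely doublets. Nuclei were clustered on 2000 variable genes without Tac1, Tac2, Tacr1 and Tacr3 (30 principal components, 15 neighbours, Leiden resolution 1 giving 25 clusters, and 2 giving 37), with igraph 0.11.9 and scikit-learn 1.9.0 in Python 3.11.15. A cluster was named "-like" from marker lists where at least 3 markers were raised and no other list led it; 10358 nuclei stayed unnamed.

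Counts summed per animal over all nuclei, or per class with at least 20 nuclei in at least 6 animals a group, were tested across all genes with edgeR 4.0.16 (quasi-likelihood, filterByExpr, TMM, all 4 groups in 1 fit, R 4.3.3) and Benjamini-Hochberg adjustment over every gene or gene and class tested. DESeq2 1.42.0 was an alternative. Orders of classes and co-detection used two-sided sign-flip permutation tests over animals, and correlations and shares used two-sided permutation tests, with 100000 resamples each (smallest p 1.00e-05). Co-detection and shares used nuclei thinned to 1000 UMIs; printed odds ratios are Mantel-Haenszel values over animals. Limits on shares cover counting error only. The scripts were tested on simulated data.

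The 4 genes, the marker and pathway lists and the tests were chosen with earlier results of these data known. Named are the 4 genes, the 3 genes most like each over clusters and at most 3 pathway genes of the lowest p per comparison; clusters singled out were chosen after their values were seen. Of the listed names, the tables did not hold Gnaq, Arrb2 and Rgs4. P-values measure the spread between animals, whose housing in pairs the labels do not resolve.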

Additional observations from a re-analysis of the deposited data

Results flagged for a closer look

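Of 26 groups of at most 10 animals examined for a single distant animal, 2 had one, and chance flags about 1 in 20 groups. Groups of all 11 female mates or all 11 male mates exceeded that limit and were not examined. Tac2 in somatostatin interneuron-like nuclei was 613 CPM in female peer 6, against 287 CPM in the nearest and 48.8 CPM in the lowest of the 8 female peers. The class includes Vip-led and Sst-led nuclei, with 512 and 136 CPM of Tac2 at the finer clustering. Their mix in this animal was not tested. Tacr3 over all nuclei was 43.4 CPM in male peer 5, against 28.5 CPM in the nearest and 12.0 CPM in the lowest of the 10 male peers. Neither gene was called for pairing with these animals included.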

How the results depend on the processing

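Of 66 alternative values of results that answer a comparison, 61 stayed on the same side of the threshold and within 1.5 times the reported count, and 5 moved. Sex over all nuclei gave 5 called genes with DESeq2 in place of 3. Without the filter on low counts, pairing within classes gave 1 call in place of 0 and sex within classes 28 in place of 15. Relations between classes past the threshold fell from 8 to 5 as deviations from sets of 10 label numbers. None of the 4 genes was called in 285 fits for pairing (lowest adjusted p 0.747), 256 for sex (0.787) or 256 for the interaction (0.999). Of 310 values for single genes or pairs, 292 kept their direction and side of the threshold and 11 changed sign. With sets of 10 label numbers as a term, the log2 fold change became 0.08 for Tacr3 by pairing and 0.02 by sex over all nuclei, -0.04 for Tac2 in the interaction, and 0.06 and 0.13 for Tac1 by pairing in D1 and eccentric MSN-like nuclei. At resolution 2, Tac1 by pairing in eccentric MSN-like nuclei was 0.01. The eccentric against D1 difference of Tac1 was -0.04, with 19859 D1 MSN-like nuclei in place of 33318. The somatostatin against D2 difference of Tacr3 was -0.05 there, because the Vip-led nuclei then form their own class. The Tacr3 and Vip odds ratio was 0.786 at 500 UMIs and 0.729 with doublets kept, and that of Tac2 and Penk in somatostatin interneuron-like nuclei 0.847 at resolution 2. For the others the cause was not tested. The Tac1 and Tac2 odds ratio in eccentric MSN-like nuclei was 1.15 at 500 UMIs, 1.08 at 2000 and 1.15 with doublets kept, none past the threshold. At resolution 2 it was 1.53 and passed. Keeping the 4 genes in the clustering gave an eccentric against D1 difference of Tac1 of 0.11. Its unadjusted p was 0.0344, against 0.0836 without them (sign-flip permutation test). Of the 4 genes, 2 were then among the variable genes behind the classes, so this test is not independent of the clustering. The labels give the groups no shared replicate numbers. An odd label number and the even number after it always held animals of 1 pairing type, so a replicate block of them could not be fitted beside pairing. Among the 22 mates each such pair held a female and a male, which the labels do not call partners, and 4 of 22 animals correlated best with their own number. Within the pairs r ran from -0.08 to 0.22 and was over 0.1 in 6 of the 11. A replicate block of these 11 pairs, added after the data were seen, left the genes called for sex among mates over all nuclei at 2 and moved those within classes from 9 to 5 of 66620 pairs of a gene and a class (edgeR). None of the 4 genes was called with or without the block (lowest adjusted p 0.872), and an unadjusted p under 0.05 was reached by 4 of their 19 pairs with a class without it and 5 with it, beside 2431 and 3111 of the 66620. Both were larger shares than over all pairs. Without the block these were Tac1 in astrocyte-like and glutamate neuron-like nuclei and Tacr3 in glutamate neuron-like and somatostatin interneuron-like nuclei. The block added Tac2 in eccentric MSN-like nuclei. Depth limits both receptor genes. Tacr1 had a median of 15.5 UMIs per animal in cholinergic interneuron-like nuclei and 3.00 in D1 MSN-like nuclei, and Tacr3 4.00 in eccentric MSN-like nuclei.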
